A study of Arabidopsis thaliana with 18 samples.

Results

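Roots in which the J0951 driver switched on UAS-YUC4 were compared with roots in which the J0121 driver did so. The comparison holds 6 of the 18 libraries of the series, 3 per line, chosen by the genotype in their labels. J0951/UAS-YUC4 carries the driver line J0951 with the UAS-YUC4 transgene, and J0121/UAS-YUC4 carries the driver line J0121 with the same transgene. All seedlings were Arabidopsis thaliana, 5 days old, with no treatment in the labels, and RNA was taken from their roots after growth on dilute Murashige and Skoog medium (1/2 MS in the labels). The other 12 libraries were J0571/UAS-YUC4, Q2500/UAS-YUC4, Q0990/UAS-YUC4 and J0951/Col, which has the J0951 driver without UAS-YUC4 and is called the control here. No J0121 library without UAS-YUC4 was analysed here, so a difference between the driver lines themselves and a difference in the response to YUC4 cannot be told apart. The labels do not give the cells in which a driver is active, the accession background of a line, or whether the libraries of a line came from separate plants.

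In the GAL4/UAS system a driver line makes the yeast activator GAL4 in some cells, and a gene behind UAS is transcribed in those cells. In work on Arabidopsis roots, J0121 is widely used as a driver for pericycle next to the xylem poles, and J0951 as a driver for epidermis and lateral root cap. Auxin is made from tryptophan in a pair of steps, first to indole-3-pyruvate by the aminotransferase TAA1 and its relatives, then to indole-3-acetic acid by flavin monooxygenases of the YUCCA family, of which YUC4 is a member. Auxin releases ARF transcription factors from Aux/IAA repressors, and genes that respond include the Aux/IAA genes themselves, GH3 genes that conjugate auxin to amino acids, and LBD genes that start lateral roots from pericycle cells.

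Values were FPKM, which divides the fragments of a gene by its length and by the size of the library, so that levels of different genes can be compared. Differences are means of log2(FPKM + 1) in J0951/UAS-YUC4 minus J0121/UAS-YUC4, so that a positive difference is higher in J0951/UAS-YUC4. They understate the change of genes with low FPKM. Called means an adjusted p below 0.05 in limma, adjusted by Benjamini-Hochberg over all 19260 genes tested. Summed FPKM lay between 650929 and 673584 in the 6 libraries, each of which had 18458 to 18724 genes at 1 FPKM or more. Without read numbers no counting interval can be stated. The lowest correlation between libraries of a line was 0.9917 in J0951/UAS-YUC4 and 0.9932 in J0121/UAS-YUC4. The 10 most abundant genes took 3.58% to 3.86% of summed FPKM in J0951/UAS-YUC4 and 5.08% to 5.53% in J0121/UAS-YUC4.

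Nearly every kind of root gene held members that differed between the lines, most of them by small amounts. Of the 19260 genes tested, 9379 were called (48.7%). A total of 4419 were higher in J0951/UAS-YUC4 (22.9% of tested genes) and 4960 were lower (25.8%), with a median difference over all tested genes of -0.02. Counts of calls in each gene list below are to be read beside 22.9% higher and 25.8% lower. Calls with at least a 2-fold difference on the log2(FPKM + 1) scale numbered 322 higher (1.67%) and 416 lower (2.16%). The 3 and 3 libraries did not overlap in FPKM for 11355 genes (59%). No gene was above 1 FPKM in every library of one line with a mean of at least 5 FPKM while every library of the other line was under 0.1 FPKM.

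**Figure D1:**
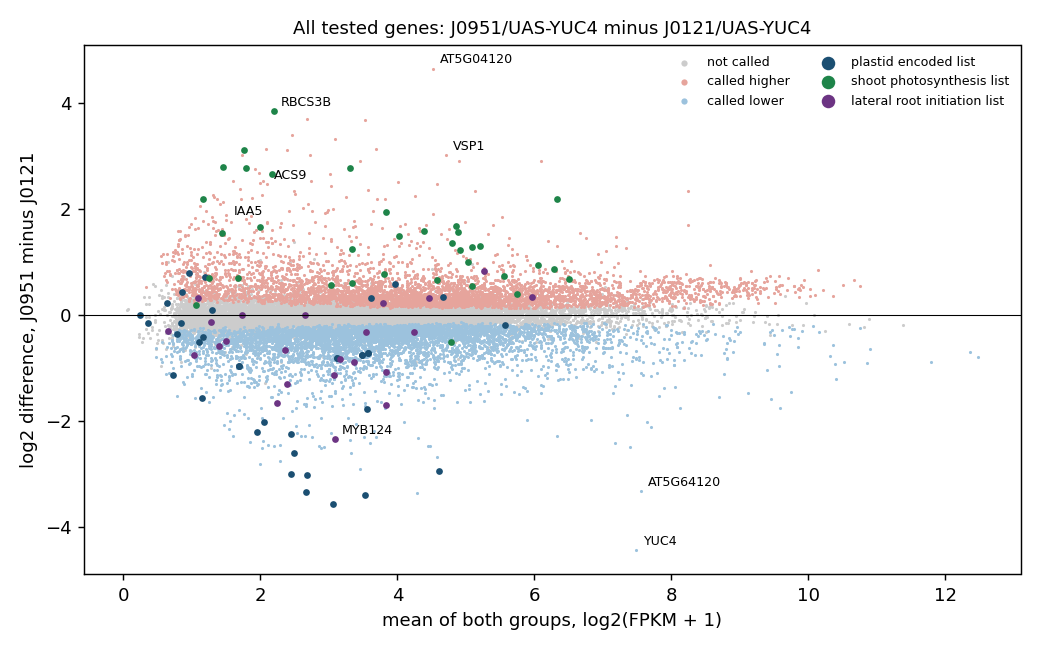
Difference of log2(FPKM + 1), J0951/UAS-YUC4 minus J0121/UAS-YUC4 (vertical axis), against the mean of both groups on the same scale (horizontal axis). There is 1 point per tested gene. Members of 3 gene lists are in darker colours, except the lateral root genes GATA23 and LBD18. YUC4 lies lowest, at -4.43, AT5G04120 highest, at 4.65, most shoot photosynthesis genes lie above 0 and most plastid-encoded and lateral root genes below it.

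YUC4, the target of the transgene, was expressed far more strongly under J0121. Its FPKM was 31.51, 36.55 and 44.6 in the J0951/UAS-YUC4 libraries and 726.86, 896.98 and 852.11 in the J0121/UAS-YUC4 libraries. The control had 0.27, 0.15 and 0.3 FPKM. All 6 libraries with UAS-YUC4 lay above the control, and the lines did not overlap. The mean was 37.6 ± 6.6 (SD, n = 3) against 825 ± 88.2, a ratio of 22, and the log2 difference was -4.43 (SE 0.49, adjusted p = 5.3e-06 in limma). This SE rests on the spread within all 6 groups. It was 0.12 with the 6 libraries alone and 0.12 without the Q0990/UAS-YUC4 libraries. An exact two-sided permutation test of 3 against 3 libraries gave p = 0.1, the smallest it can give. The FPKM table does not separate transcripts of the transgene from those of the native gene. With the drivers J0571, Q2500 and Q0990, YUC4 averaged 74.1, 102 and 4.64 FPKM, so that J0121 was the highest of the 5 driver lines. Over all tested genes, Q2500/UAS-YUC4 replicate 3 correlated best with J0121/UAS-YUC4 replicate 2 (0.9937), and as low as 0.9807 within its own line. Q0990/UAS-YUC4 replicate 1 correlated best with control replicate 2 (0.9914). The cause was not tested, and the means of these lines include both libraries. Because these are whole roots, fewer cells of a type and less RNA per cell cannot be told apart, here or below.

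Several auxin response genes were higher in J0951/UAS-YUC4, the line with less YUC4 transcript. IAA5, an auxin-inducible Aux/IAA repressor, stood at 4.07, 4 and 4.59 FPKM in J0951/UAS-YUC4 and at 0.39, 0.88 and 0.32 in J0121/UAS-YUC4. The lines did not overlap, the control, whose libraries read 0.39, 0.52 and 0.06, overlapped with J0121/UAS-YUC4, and the log2 difference between the lines was 1.79 (SE 0.20, adjusted p = 5.3e-06). GH3.3, which conjugates auxin to amino acids, stood at 18.92, 21.41 and 25.18 FPKM against 9.17, 7.51 and 7.54. Both lines were above the control mean of 2.71, the lines did not overlap, and the difference was 1.33 (SE 0.19, adjusted p = 3.8e-05). GH3.6, of the same family, averaged 58.5 ± 8.09 FPKM against 28.7 ± 2.24 and differed by 1.00 (SE 0.13, adjusted p = 2.5e-05). IAA1 averaged 20 ± 0.471 FPKM against 10.1 ± 1.25, a difference of 0.92 (SE 0.11, adjusted p = 7.1e-06). Smaller differences in the same direction were called for IAA19, at 0.49 (SE 0.11, adjusted p = 0.0022), and for GH3.2, at 0.44 (SE 0.10, adjusted p = 0.0022).

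Other auxin response genes did not follow. GH3.5 stood at 40.91, 46.07 and 47.37 FPKM in J0951/UAS-YUC4 and at 43.28, 40.1 and 44.87 in J0121/UAS-YUC4, against a control mean of 16.8. Its libraries overlapped and the difference was 0.06 (SE 0.09, adjusted p = 0.59). IAA29 averaged 1.55 FPKM against 1.17, a difference of 0.23 that was not called (adjusted p = 0.16). GH3.1 was the reverse of GH3.3, at 4.84 ± 1.05 FPKM against 6.66 ± 0.9, although its libraries overlapped. Its difference was -0.40 (SE 0.13, adjusted p = 0.021), and the adjusted p went to 0.1 without J0951/UAS-YUC4 replicate 1, 0.069 without replicate 2, and 0.097 and 0.053 without J0121/UAS-YUC4 replicates 2 and 3.

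The Aux/IAA family as a whole had no common direction. Of 27 members tested, 7 were higher in J0951/UAS-YUC4 (25.9%) and 10 were lower (37%), with a median difference of -0.01. Over all tested genes the shares were 22.9% and 25.8% and the median -0.02. Besides IAA1, IAA5 and IAA19, those higher were IAA6, IAA7, IAA17 and IAA20. IAA20 is the weakest of these, and its call was lost without J0951/UAS-YUC4 replicate 1 or 3 (adjusted p = 0.057 and 0.054) and without J0121/UAS-YUC4 replicate 2 (0.077). With a minimum of 5 FPKM the 7 went to 4. IAA7 averaged 82.9 ± 2.12 FPKM against 54.4 ± 5.4, a difference of 0.60 (SE 0.10, adjusted p = 0.00017). Among those lower were IAA14, a repressor of lateral root initiation, at 16.2 ± 0.596 FPKM against 25.8 ± 1.94 and a difference of -0.64 (SE 0.09, adjusted p = 2.9e-05), and IAA28, another such repressor, at 50.4 ± 3.81 against 63.2 ± 6.63 and -0.32 (adjusted p = 0.0045). IAA27 (-0.65) and IAA26 (-0.55) were also lower.

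**Figure D2:**
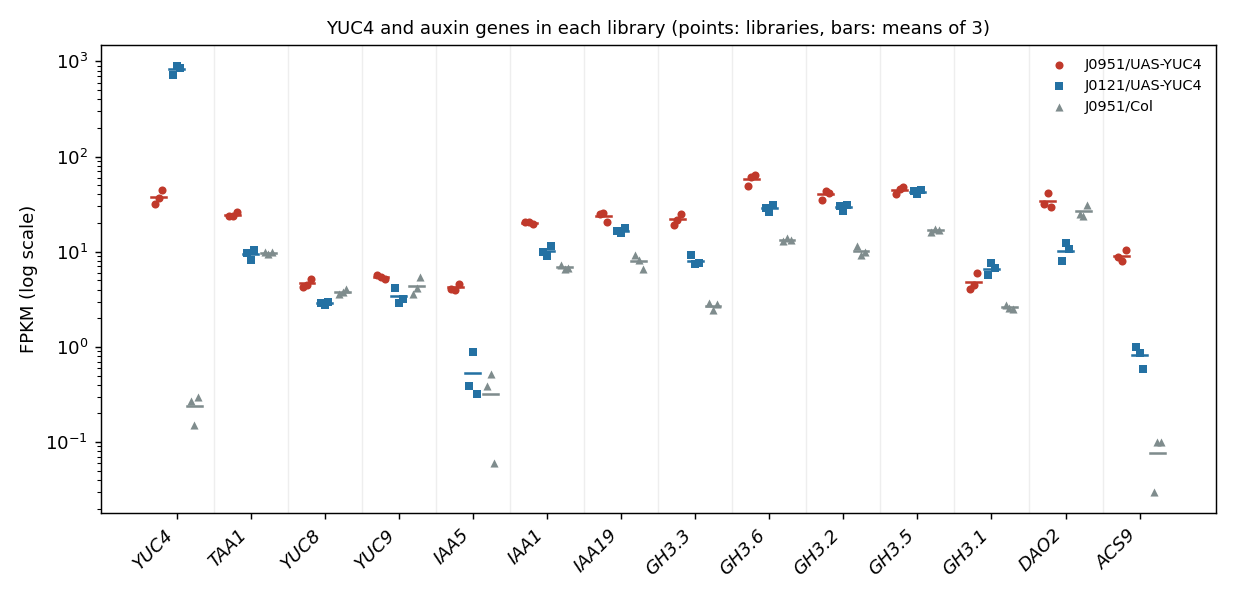
FPKM on a log axis for YUC4 and 13 auxin genes in each library of J0951/UAS-YUC4 (circles), J0121/UAS-YUC4 (squares) and J0951/Col (triangles), with bars at the means of 3 libraries. YUC4 averages 37.6 FPKM under J0951 and 825 under J0121, while IAA5, GH3.3, GH3.6 and TAA1 are higher under J0951, GH3.5 overlaps and GH3.1 is lower.

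Native genes listed under auxin synthesis were higher in J0951/UAS-YUC4 wherever they were called. Of 19 tested, 12 were higher (63.2%) and 0 lower, beside 22.9% and 25.8% of all tested genes, with a median difference of 0.36. TAA1, which makes the substrate of YUC enzymes, stood at 23.94, 23.48 and 26.16 FPKM in J0951/UAS-YUC4 and at 9.68, 8.13 and 10.32 in J0121/UAS-YUC4. The J0121 libraries lay at the level of the control, whose mean was 9.81, and the lines differed by 1.3 (SE 0.14, adjusted p = 3.6e-06). Its relative TAR2 differed by 0.36 (5.48 ± 0.451 FPKM against 4.05 ± 0.251, adjusted p = 0.0097). YUC8 averaged 4.65 ± 0.429 FPKM against 2.86 ± 0.11, a difference of 0.55 (SE 0.12, adjusted p = 0.0015). NIT4, a nitrilase kept in this list, had its largest difference, 1.39 (SE 0.13, adjusted p = 1.1e-06), from 5.97 ± 1.1 FPKM against 1.66 ± 0.261. Whether NIT4 acts in auxin synthesis was not tested here. YUC3, YUC5 and YUC6 were not called, at 0.06, 0.07 and -0.11.

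Auxin inactivation genes were mixed, with 7 of 15 higher (46.7%), 3 lower (20%) and a median difference of 0.11. Over all tested genes 22.9% were higher and 25.8% lower. DAO2, a relative of the auxin oxidase DAO1, stood at 32.05, 41.61 and 29.3 FPKM in J0951/UAS-YUC4 and at 7.91, 12.35 and 10.58 in J0121/UAS-YUC4. Here J0951/UAS-YUC4 lay near the control mean of 26.6 and J0121/UAS-YUC4 below it, with a difference of 1.65 (SE 0.26, adjusted p = 8.8e-05). DAO1 itself was not called, at 10.1 ± 1.25 against 9.3 ± 0.833 FPKM. The count of 3 lower went to 1 without J0951/UAS-YUC4 replicate 1 or 2 and without J0121/UAS-YUC4 replicate 2 or 3.

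Auxin carriers differed gene by gene, 7 of 22 higher (31.8%) and 5 lower (22.7%), median 0.16. Over all tested genes the shares were 22.9% and 25.8%. LAX1, an auxin influx carrier, stood at 6.37, 5.6 and 5.83 FPKM in J0951/UAS-YUC4 and at 13.32, 17.35 and 17.18 in J0121/UAS-YUC4. Control libraries read 16.44, 16.44 and 19.83, so the J0951 line with UAS-YUC4 was the low one, and the difference was -1.28 (SE 0.14, adjusted p = 3.9e-06). AUX1, the main influx carrier of the root, was lower by less, at 71.1 ± 4.01 FPKM against 94.9 ± 2.57 (-0.41, adjusted p = 0.00018). The efflux carrier PIN2, which acts in epidermis and cortex, was higher at 65.8 ± 5.44 FPKM against 49.4 ± 3.14 (0.40, adjusted p = 0.0014). The kinases that steer PIN proteins, PID and WAG2, were higher by 0.71 and 0.73. PIN3 and PIN7 were not called, at 0.00 and -0.15. Receptors and ARF factors gave 6 of 22 higher and 3 lower, median 0.05, a share of higher calls close to that of all genes. The 6 went to 3 without J0121/UAS-YUC4 replicate 1, and to 2 when the 6 libraries alone were corrected for purine content.

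SAUR genes, small auxin-induced transcripts, gave 15 of 39 tested higher (38.5%) and 4 lower (10.3%), beside 22.9% and 25.8% of all tested genes, median 0.18. Many have low FPKM, and the 15 went to 4 with a minimum of 5 FPKM and to 27 with no filter on low values. The strongest, AT5G20820, stood at 25.16, 25.48 and 27.36 FPKM in J0951/UAS-YUC4 and at 4.66, 4.31 and 3.77 in J0121/UAS-YUC4. The lines were far apart, the control averaged 1.65, and the difference was 2.37 (SE 0.20, adjusted p = 4.6e-07). AT2G46690 went the other way, at 56.5 ± 6.13 FPKM against 110 ± 14.6 (-0.94, SE 0.13, adjusted p = 3.2e-05).

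Genes of lateral root initiation were mainly higher in J0121/UAS-YUC4. Of 25 tested, 16 were lower in J0951/UAS-YUC4 (64%) and 4 were higher (16%), beside 25.8% and 22.9% of all tested genes. The median difference was -0.49. The 16 ranged from 14 to 16 when 1 library was left out, while the 4 higher went to 2 without J0951/UAS-YUC4 replicate 3. LBD29, an LBD factor that ARFs switch on in the pericycle, stood at 1.84, 1.89 and 1.3 FPKM in J0951/UAS-YUC4 and at 7.89, 6.36 and 7.87 in J0121/UAS-YUC4. J0951/UAS-YUC4 lay at or under the control mean of 2.46 and J0121/UAS-YUC4 above it, with a difference of -1.65 (SE 0.12, adjusted p = 1.7e-07). LBD16, its partner, stood at 6.6, 6.71 and 6.31 FPKM against 12.27, 13.28 and 13.48. The control averaged 5.05, near the J0951 line, and the difference was -0.89 (SE 0.10, adjusted p = 5.1e-06). LBD18 was lower by less, at 2.15 ± 0.15 FPKM against 3.23 ± 0.477 (-0.42, SE 0.12, adjusted p = 0.0068).

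Further regulators of the young primordium followed LBD29. PUCHI, an AP2 factor of early primordia, stood at 2.55, 2.17 and 2.25 FPKM in J0951/UAS-YUC4 and at 6.34, 7.55 and 7.65 in J0121/UAS-YUC4. The control mean of 2.15 matched the J0951 level, and the difference was -1.30 (SE 0.12, adjusted p = 1.1e-06). GATA23, which marks founder cells of lateral roots in the pericycle, stood at 1.25, 1.84 and 1.26 FPKM against 5.64, 3.92 and 4.41. The control averaged 2.31, between the lines, and the difference was -1.20 (SE 0.16, adjusted p = 2.8e-05). MAKR4, needed for founder cells to go on to primordia, averaged 5.71 ± 0.65 FPKM against 10.9 ± 0.87 (-0.83, SE 0.13, adjusted p = 9.9e-05). PLT7 (-0.74) and PLT5 (-0.58), PLETHORA factors of primordium outgrowth, were also lower in J0951/UAS-YUC4.

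The largest difference of this list was in MYB124, a MYB factor known from stomatal divisions and auxin transport. It stood at 2.94, 3.47 and 1.97 FPKM in J0951/UAS-YUC4 and at 17.71, 17.07 and 19.21 in J0121/UAS-YUC4. Control libraries read 6.43, 9.11 and 10.22, between the lines, and the difference was -2.34 (SE 0.17, adjusted p = 8.4e-08). Its paralog MYB88 averaged 4.75 ± 1.07 FPKM against 11.4 ± 0.0404, with the control at 13.5, and differed by -1.13 (SE 0.13, adjusted p = 7.6e-06). EXPA17, an expansin of the tissue over primordia, was at 6.92 ± 0.918 FPKM against 24.7 ± 2.93, and the control had 29.5 (-1.70, SE 0.24, adjusted p = 3.7e-05). For MYB88 and EXPA17 it was thus the J0951 line that lay away from the control. TMO7, a small bHLH factor under MONOPTEROS, was the strongest exception, higher at 50.3 ± 5.6 FPKM against 27.7 ± 4.36 (0.84, SE 0.13, adjusted p = 0.0001).

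**Figure D3:**
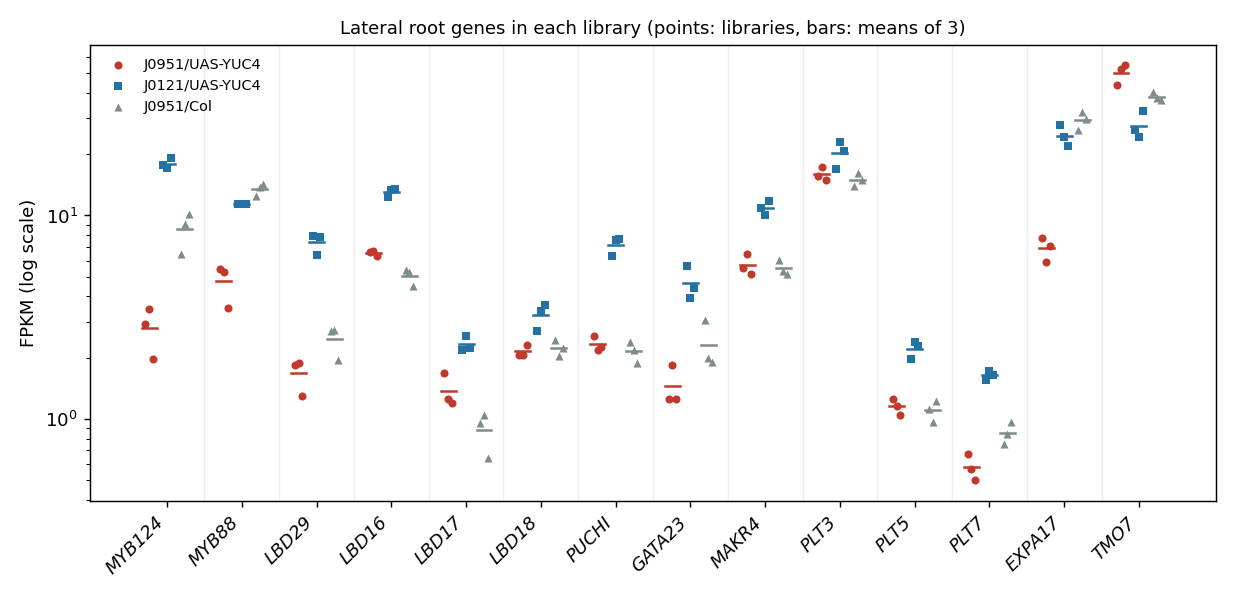
FPKM on a log axis for 14 genes of lateral root formation in each library of J0951/UAS-YUC4 (circles), J0121/UAS-YUC4 (squares) and J0951/Col (triangles), with bars at the means of 3 libraries. MYB124 averages 2.79 FPKM under J0951 and 18 under J0121, LBD16, LBD29, PUCHI and GATA23 lie the same way, PLT3 overlaps, and TMO7 is higher under J0951.

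Genes of ethylene synthesis took both signs. ACS9, one of the synthases that make the ethylene precursor ACC, stood at 8.71, 8.06 and 10.41 FPKM in J0951/UAS-YUC4 and at 1, 0.87 and 0.59 in J0121/UAS-YUC4. The control mean was 0.0767, so both lines were above it, and the difference was 2.47 (SE 0.15, adjusted p = 1.8e-08). ACO3, an oxidase that turns ACC into ethylene, stood at 10.31, 7.26 and 7.82 FPKM against 63.47, 67.36 and 47.74. The control mean of 18.3 lay between the lines, and the difference was -2.68 (SE 0.26, adjusted p = 1.8e-06). Among other ACC oxidases, ACO4 was higher at 36.1 ± 0.592 FPKM against 27.6 ± 3.22 (0.38, SE 0.09, adjusted p = 0.0016) and ACO1 was not called (-0.01). Of the synthases, ACS6 (0.94) and ACS7 (0.90) were also higher in J0951/UAS-YUC4, and ACS2 and ACS5 were not called (-0.16 and 0.17). Over the whole ethylene list, 7 of 19 were higher (36.8%) and 3 lower (15.8%), beside 22.9% and 25.8% of all tested genes, median 0.17. The 7 went to 4 with a minimum of 5 FPKM.

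Of the outer root tissues, the root cap list had 6 of 10 higher in J0951/UAS-YUC4 (60%), 0 lower and 4 not called, median 0.35. The shares of all tested genes were 22.9% higher and 25.8% lower. BRN2, a NAC factor of root cap maturation, stood at 7.72, 7.96 and 8.3 FPKM against 4.24, 3.21 and 4.71. The lines did not overlap, the control averaged 6.04, and the difference was 0.84 (SE 0.12, adjusted p = 3.2e-05). BRN1 was at 10.1 ± 1.63 FPKM against 5.78 ± 0.43 (0.70, SE 0.12, adjusted p = 0.00021). PASPA3, an aspartic protease that marks cells preparing to die, was at 23.3 ± 0.0643 against 11.8 ± 1.96 (0.93, SE 0.17, adjusted p = 0.00037).

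In the epidermal patterning list 6 of 14 were higher (42.9%), 0 lower and 8 not called, beside 22.9% and 25.8% of all tested genes. The median was 0.18, and 3 were higher with a minimum of 5 FPKM. GL2, the homeodomain factor of non-hair cells, averaged 10.7 ± 0.441 FPKM against 7.1 ± 0.62 (0.53, SE 0.08, adjusted p = 9e-05). CPC, which moves into hair cells and represses GL2, was also higher, by 0.32 (adjusted p = 0.0037). WER, which acts upstream of both, was not called, at 16 ± 0.861 against 16.1 ± 0.866 FPKM. Root hair growth genes gave 5 of 29 higher and 4 lower, median 0.05, both below the shares over all genes. RHD6, a bHLH factor that starts hairs, was higher at 15.5 ± 1.07 FPKM against 9.99 ± 1.07 (0.59, SE 0.10, adjusted p = 0.00018). RSL4, which sets hair length, was not called, at 12.7 ± 0.455 against 12.3 ± 1.86 FPKM (0.05, adjusted p = 0.77). The 4 lower root hair genes went to 2 without J0951/UAS-YUC4 replicate 1 or 3 or J0121/UAS-YUC4 replicate 1, and to 1 after the correction for purine content given below.

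In the Casparian strip list, genes of the endodermal barrier, 11 of 15 were lower in J0951/UAS-YUC4 (73.3%), 0 higher and 4 not called. The median was -0.41, and the shares of all tested genes were 25.8% lower and 22.9% higher. CASP5, a scaffold protein of the strip, stood at 7.02, 7.83 and 8.58 FPKM in J0951/UAS-YUC4 and at 20.31, 17.91 and 21.2 in J0121/UAS-YUC4. The control averaged 22.2, at the J0121 level, and the difference was -1.24 (SE 0.19, adjusted p = 7.8e-05). CASP4 was at 14.3 ± 1.01 FPKM against 26.7 ± 1.43 (-0.85, SE 0.10, adjusted p = 1.3e-05) and CASP1 at 115 ± 7.51 against 165 ± 12.2 (-0.51, SE 0.11, adjusted p = 0.0015). MYB36, the factor that switches on the strip genes, was lower by less, at 11.8 ± 1.18 FPKM against 16 ± 1.1 (-0.41, SE 0.08, adjusted p = 0.00042).

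The suberin, xylem and phloem lists had no member called higher, and most of their members were not called. Their shares called lower were 42.1%, 38.1% and 36%, beside 25.8% of all tested genes. Suberin genes, of the later endodermal coat, gave 8 of 19 lower, median -0.27, a count that went to 4 without J0121/UAS-YUC4 replicate 3. FAR1, a fatty acyl reductase of suberin synthesis, stood at 3.96, 4.16 and 3.23 FPKM against 9.27, 9.8 and 11.47. The lines did not overlap, the control mean was 7.17, and the difference was -1.23 (SE 0.15, adjusted p = 1.1e-05). Xylem secondary wall genes gave 8 of 21 lower, median -0.22, which went to 4 without J0951/UAS-YUC4 replicate 3 and to 3 without J0121/UAS-YUC4 replicate 3. The thermospermine synthase ACL5, which acts in young xylem vessels, was lower at 66.5 ± 3.1 FPKM against 107 ± 3.32 (-0.68, SE 0.10, adjusted p = 7e-05). Phloem and vascular genes gave 9 of 25 lower, median -0.20, and 5 without J0951/UAS-YUC4 replicate 2. T5L1, a partner in the bHLH complex of vascular divisions, was lower at 7.57 ± 0.523 against 13.7 ± 1.04 FPKM (-0.78, SE 0.11, adjusted p = 2.8e-05). For 6 of the 7 genes named from the Casparian strip, suberin, xylem and phloem lists, the control mean was nearer to J0121/UAS-YUC4, and the exception was MYB36, with a control mean of 12.4.

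The pericycle and stele list was split, 6 of 14 higher (42.9%) and 4 lower (28.6%), beside 22.9% and 25.8% of all tested genes, median 0.10. SULTR2;1, a sulfate transporter of vascular tissue, stood at 28.69, 32.7 and 26.31 FPKM in J0951/UAS-YUC4 and at 5.53, 5.17 and 6.2 in J0121/UAS-YUC4. The lines did not overlap, the control averaged 3.03, and the difference was 2.19 (SE 0.22, adjusted p = 2e-06). NPF7.3, which loads nitrate and potassium into the xylem from the pericycle, stood at 430.24, 410.83 and 371.67 FPKM against 1091.41, 1308.31 and 1239.77. The control mean of 779 lay between the lines, and the difference was -1.58 (SE 0.18, adjusted p = 5.6e-06). PHO1, the phosphate exporter of the same cells, was also lower (-0.68, SE 0.12, adjusted p = 0.00025). The 6 higher went to 3 without replicate 3 of either line.

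**Figure D4:**
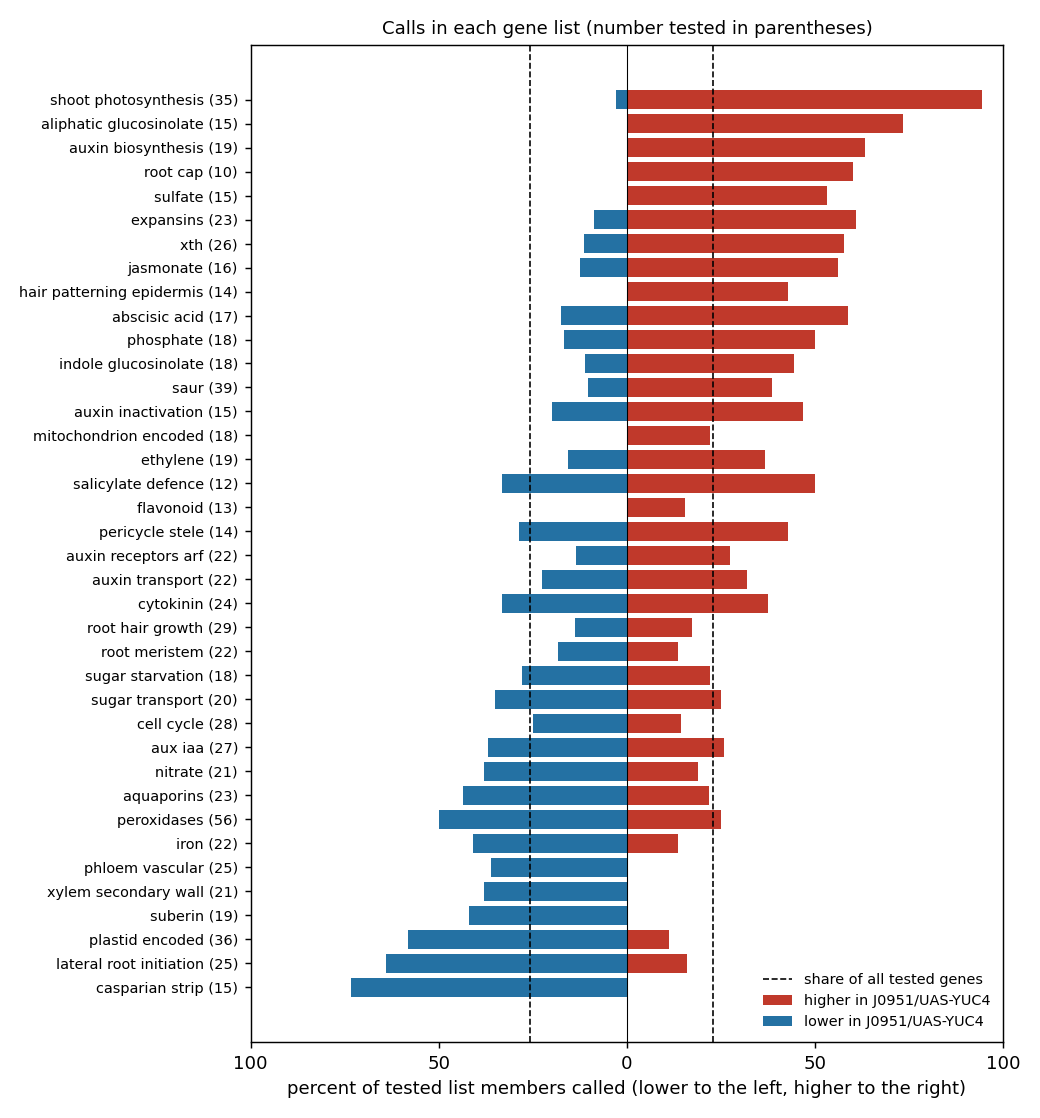
Percent of the tested members of each gene list that were called lower (left, blue) or higher (right, red) in J0951/UAS-YUC4. Lists with fewer than 10 tested members are not drawn. Dashed lines mark the shares over all tested genes, 25.8% lower and 22.9% higher. Shoot photosynthesis has 94.3% called higher, and the Casparian strip, suberin, xylem and phloem lists have members called lower and 0% higher.

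Nuclear photosynthesis genes were the list with the largest share of calls. Of 35 tested, 33 were higher in J0951/UAS-YUC4 (94.3%) and 1 was lower, CHLM (2.86%), beside 22.9% and 25.8% of all tested genes. The median difference was 1.28. LHCB1.3, a light-harvesting protein of photosystem II, stood at 152.72, 142.39 and 213.47 FPKM in J0951/UAS-YUC4 and at 41.74, 44.07 and 24.83 in J0121/UAS-YUC4. The lines did not overlap, the control averaged 58.2, and the difference was 2.19 (SE 0.22, adjusted p = 2.5e-06). RBCS3B, a small subunit of Rubisco, stood at 12.59, 15.43 and 21.73 FPKM against 0.19, 0.25 and 0.13 (3.85, SE 0.45, adjusted p = 8.9e-06). GLK2, a factor that promotes chloroplast development, was higher at 8.93 FPKM against 5.67, a difference of 0.58 (adjusted p = 0.0045). The summed FPKM of the list was 1109 to 1496 in J0951/UAS-YUC4, 481 to 638 in J0121/UAS-YUC4 and 555 to 744 in the control. In each group 0 of these genes were at 0 in every library. RBCS and LHCB genes have near-identical copies, and the value of one copy is therefore uncertain. The part of shoot tissue in this or any other result was not tested.

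Genes encoded in the plastid genome went the other way. Of 36 tested, 21 were lower in J0951/UAS-YUC4 (58.3%) and 4 higher (11.1%), beside 25.8% and 22.9% of all tested genes, median -0.74. The 21 stayed between 18 and 21 when 1 library was left out, while the 4 went to 1 without J0951/UAS-YUC4 replicate 1 or 3 and to 2 without any 1 of the J0121/UAS-YUC4 libraries. They took 0.0267% to 0.0361% of summed FPKM in J0951/UAS-YUC4 and 0.0599% to 0.0718% in J0121/UAS-YUC4. ATCG00780 stood at 2.52, 4.34 and 1.13 FPKM against 27.32, 39.07 and 39.54 (-3.39, SE 0.35, adjusted p = 2.7e-06), with a control mean of 30.8. ATCG00800 had the lowest difference after YUC4, -3.56 (SE 0.43, adjusted p = 1e-05), from 1.48 ± 1.06 against 26.9 ± 4.38 FPKM. The 7 loci from ATCG00750 to ATCG00810 were all among the 15 lowest genes of the comparison. They are neighbours in number, and whether they vary independently of each other was not tested. Plastid transcripts mostly lack the long poly(A) tails of nuclear messengers, and the labels do not say how messenger RNA was selected.

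Of 23 expansins, which loosen cell walls, 14 were higher in J0951/UAS-YUC4 (60.9%), 2 lower (8.7%) and 7 not called, median 0.45. The shares of all tested genes were 22.9% higher and 25.8% lower. EXPA12 stood at 7.73, 6.57 and 11.31 FPKM in J0951/UAS-YUC4 and at 0.28, 0.18 and 0 in J0121/UAS-YUC4. The control lay at the J0121 level, with a mean of 0.173, and the difference was 3.02 (SE 0.18, adjusted p = 1.7e-08). Of 26 XTH genes, which cut and rejoin xyloglucan, 15 were higher (57.7%), 3 lower (11.5%) and 8 not called, median 0.54. XTH5 averaged 43.6 ± 6.31 FPKM against 10.8 ± 1.06 (1.91, SE 0.14, adjusted p = 1.1e-07), and XTH19 84.2 ± 4.15 against 40.5 ± 2.23 (1.04, SE 0.06, adjusted p = 2.4e-08).

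Class III peroxidases, which oxidise phenolics in the wall, tended the other way, with 28 of 56 lower (50%), 14 higher (25%) and a median difference of -0.27. Over all tested genes 25.8% were lower and 22.9% higher. The 14 went to 8 with a minimum of 5 FPKM. AT5G64120 stood at 60.71, 58.35 and 56.13 FPKM in J0951/UAS-YUC4 and at 661.82, 598.23 and 520.18 in J0121/UAS-YUC4. The control averaged 560, at the J0121 level, and the difference was -3.32 (SE 0.15, adjusted p = 4.9e-10). AT2G38390 averaged 35.5 ± 4.41 FPKM against 175 ± 8.35 (-2.28, SE 0.09, adjusted p = 2.4e-10). The opposite held for AT2G41480, at 11.5 ± 2.01 FPKM against 0.427 ± 0.172 (3.13, SE 0.20, adjusted p = 2.4e-08).

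Hormone and nutrient lists differed as well. Jasmonate genes gave 9 of 16 higher (56.2%) and 2 lower (12.5%), beside 22.9% and 25.8% of all tested genes, median 0.43. Without J0951/UAS-YUC4 replicate 3 or J0121/UAS-YUC4 replicate 2, 1 was lower. VSP1, a vegetative storage protein induced by jasmonate, stood at 74.6, 83.96 and 56.07 FPKM in J0951/UAS-YUC4 and at 4.15, 9.35 and 11.95 in J0121/UAS-YUC4. The control averaged 29.4, between the lines, and the difference was 3.02 (SE 0.45, adjusted p = 6.6e-05). Abscisic acid and water stress genes gave 10 of 17 higher and 3 lower, median 0.49. P5CS1, which makes proline under water stress, was at 74.9 ± 9.38 FPKM against 33.2 ± 1.92 (1.14, SE 0.09, adjusted p = 1.7e-07). Cytokinin genes were even, 9 of 24 higher (37.5%) and 8 lower (33.3%), median -0.01. With a minimum of 5 FPKM 4 were higher, and type-A response regulators took both signs. ARR3 averaged 42.9 ± 0.607 FPKM against 18.4 ± 0.657 (1.17, SE 0.14, adjusted p = 9.5e-06), while ARR7 averaged 4.58 ± 0.781 against 10.4 ± 2.46 (-1.02, SE 0.15, adjusted p = 4.5e-05).

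Sulfur deficiency genes gave 8 of 15 higher (53.3%) and 0 lower, beside 22.9% and 25.8% of all tested genes, median 0.46. LSU1, a marker of sulfur shortage, stood at 16.16, 21.12 and 20.32 FPKM in J0951/UAS-YUC4 and at 1.74, 1.84 and 3.07 in J0121/UAS-YUC4. The control averaged 10.5, between the lines, and the difference was 2.67 (SE 0.36, adjusted p = 2.6e-05). The main root uptake transporter SULTR1;2 was not called, at 68.6 ± 14.2 against 72.4 ± 3.59 FPKM. Aliphatic glucosinolate genes, of a sulfur-rich defence pathway, gave 11 of 15 higher (73.3%) and 0 lower, median 0.60. The 11 went to 7 without J0121/UAS-YUC4 replicate 3. CYP83A1, of the core pathway, was at 42.2 ± 8.03 FPKM against 15.2 ± 4.38 (1.43, SE 0.27, adjusted p = 0.00044).

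Phosphate starvation genes gave 9 of 18 higher (50%) and 3 lower (16.7%), beside 22.9% and 25.8% of all tested genes, median 0.27. SPX1, a phosphate sensor induced by starvation, stood at 21.13, 23.01 and 19.69 FPKM in J0951/UAS-YUC4 and at 6.24, 4.85 and 6.09 in J0121/UAS-YUC4. The lines did not overlap, the control averaged 8.23, and the difference was 1.73 (SE 0.14, adjusted p = 2.6e-07). The uptake transporter PHT1;1 was lower, at 168 ± 11.9 FPKM against 305 ± 43 (-0.85, SE 0.15, adjusted p = 0.00022). Iron genes gave 3 of 22 higher (13.6%) and 9 lower (40.9%), median -0.26, and the 3 went to 1 without J0951/UAS-YUC4 replicate 3. FIT, the factor that switches on iron uptake, was lower at 21.3 ± 1.55 FPKM against 43.6 ± 8.11 (-0.99, SE 0.17, adjusted p = 0.00026). Nitrate genes gave 4 of 21 higher (19%) and 8 lower (38.1%), median -0.12, and the 8 went to 5 without J0121/UAS-YUC4 replicate 3. Against the lean of that list, NIA1, a nitrate reductase, was higher at 83.9 ± 1.5 FPKM against 24.1 ± 12.6 (1.86, SE 0.37, adjusted p = 0.00061).

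The gene with the largest difference was AT5G04120, annotated as a phosphoglycerate mutase family protein. It stood at 105.41, 131.23 and 103.46 FPKM in J0951/UAS-YUC4 and at 3.2, 2.97 and 4.62 in J0121/UAS-YUC4. The control mean of 21.9 lay between the lines, and the difference was 4.65 (SE 0.29, adjusted p = 2.4e-08). ICS2, an isochorismate synthase, averaged 40.4 ± 10.2 FPKM against 2.23 ± 0.856 (3.69, SE 0.49, adjusted p = 2.4e-05). TCH3, a calmodulin-like gene induced by touch, averaged 37.2 ± 5.41 against 3.38 ± 0.873 (3.13, SE 0.18, adjusted p = 1.7e-08). ASN1, an asparagine synthetase induced by sugar shortage, averaged 25.8 ± 5.84 against 1.68 ± 0.628, with a control mean of 0.473 (3.32, SE 0.31, adjusted p = 1e-06). The rest of the 15 highest were AT3G28320, MLP28, VSP1, VSP2, AT2G41480, RBCS3B, LHCB2.2, EXPA12, AT5G62210, AT3G02480 and AT4G33550, with differences from 2.91 to 3.85.

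Apart from YUC4, the plastid loci, AT5G64120 and ACO3, the 15 lowest were AT3G05900, annotated as neurofilament-like, AT2G22795, AT4G36520, AT1G80165 and AT5G16730. Of the 15 lowest, 8 had a RefSeq transcript, and 4 of these were among the 5% of tested genes richest in purines. The 15 highest held 2 such genes. Purine-rich genes as a group were lower in J0951/UAS-YUC4, as given below. AT3G05900 stood at 4.65, 9.34 and 2.33 FPKM in J0951/UAS-YUC4 and at 58.57, 52.85 and 64.56 in J0121/UAS-YUC4. The control averaged 41.7, nearer to the J0121 line, and the difference was -3.36 (SE 0.34, adjusted p = 2.5e-06).

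In the order of genes along the chromosomes, 1 stretch held at least 5 of 10 consecutive tested genes that were called and 2-fold higher in J0951/UAS-YUC4. It ran from AT5G37830 to AT5G38060, spanned 14 tested genes and held 5 such genes, of them 3 zinc-binding dehydrogenases and 2 methyltransferases in the annotation. AT5G37990, a methyltransferase, stood at 190.88, 219.25 and 135.94 FPKM against 14.78, 22.64 and 36.61. The control averaged 54.9, and the difference was 2.90 (SE 0.44, adjusted p = 7.2e-05). AT5G38020, also a methyltransferase, was at 55.5 ± 8.88 FPKM against 9.18 ± 1.99 (2.48, SE 0.33, adjusted p = 2.4e-05). Genes of these families are tandem copies, so reads may have been split between them.

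The difference between the lines moved with the base composition of the transcripts. Across 19206 tested genes with a RefSeq transcript, Spearman's rho between the percent of purines and the log2 difference was -0.25, a description over genes that share the same 6 libraries. The 5% of genes richest in purines had a median difference of -0.43, and they held 158 of the 416 genes that were 2-fold lower (38%) and 12 of the 322 that were 2-fold higher (3.73%). In these genes the median deviation from the mean of all 18 libraries was -0.28, -0.23 and -0.46 in the J0951/UAS-YUC4 libraries and 0.12, 0.11 and 0.16 in the J0121/UAS-YUC4 libraries. The control libraries lay at -0.13, -0.02 and 0.07, so the value also varied within a genotype. After each library was corrected for purine content, 356 genes were 2-fold higher and 281 were 2-fold lower. These counts leave out the 54 tested genes without a RefSeq transcript. Of the 416 genes 2-fold lower before the correction, 403 had a transcript. The corrected differences were -2.10 for MYB124, -1.72 for LBD29, 1.93 for IAA5 and 1.32 for GH3.3, each still called. AT2G22795, an uncharacterised gene, went from -2.89 to -1.85 and stayed called. Calls were lost for ERD10 (-0.41 to -0.04) and RD29A (-0.59 to -0.07), water stress genes that were lower in J0951/UAS-YUC4, and with them the 3 lower genes of that list went to 0.

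**Figure D5:**
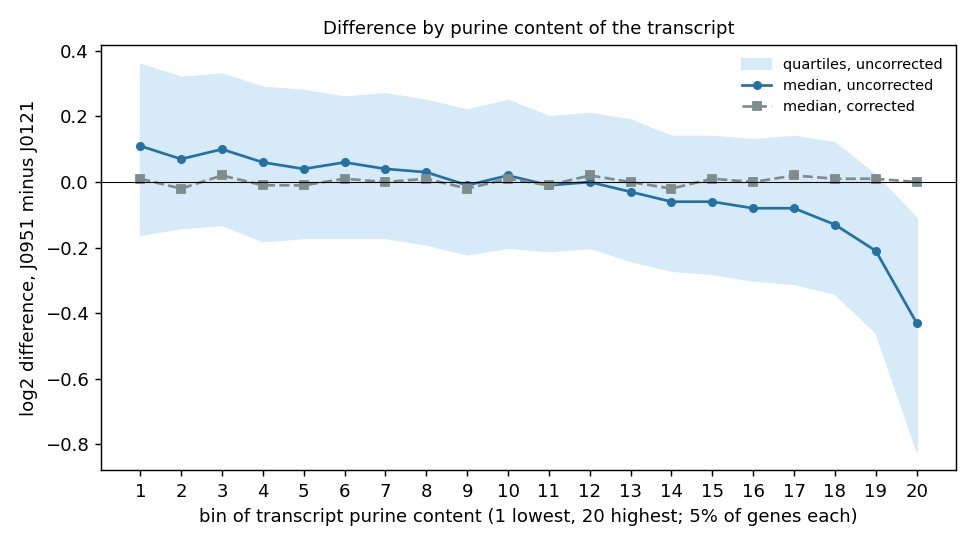
Median log2 difference, J0951/UAS-YUC4 minus J0121/UAS-YUC4, in 20 bins of genes ordered by the purine content of the transcript, with quartiles shaded and the median after correction dashed. The uncorrected median goes from 0.11 in the bin lowest in purines to -0.43 in the highest, and the corrected medians lie between -0.02 and 0.02.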

How the data were processed

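Per the labels' protocols, total root RNA was reverse transcribed from random primers and sequenced by Illumina. The authors deposited FPKM values for 25202 loci, with 2 decimals. Aligner, genome build, read numbers and strand are not given in the sources used, so depth is unknown. All 18 value columns were used, through their names. A linear model with 1 mean for each of the 6 groups was fitted to log2(FPKM + 1) in limma 3.58.1 (R 4.3.3). Variances were moderated with a trend on the mean level, and 12 residual degrees of freedom remained. Genes with at least 1 FPKM in at least 3 libraries were tested, 19260 in all. The median standard error was 0.0994. Because separate plants are not stated, the p-values reflect library spread alone, possibly technical. With 3 libraries a line, exact permutation reaches 0.1 at best.

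Names, products, gene order and transcript composition came from RefSeq TAIR10.1, which matched 25000 loci. It was not used to place values. The fit was tested on simulated data. Alternatives were other pseudocounts, filters and scalings, the 6 libraries alone, a replicate block, leaving out each library, and, added after the data were seen, a correction for purine content. This correction has no value for organelle genes.

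Members and gene lists were chosen with earlier results of these data known, so counts of list members describe and are not tests. Genes were named by rule: YUC4, a panel of 16 auxin and root genes, the 15 highest and 15 lowest called genes with libraries apart and a higher mean of at least 5 FPKM, up to 4 called members per list, and genes of neighbouring stretches. Other members of the auxin, lateral root and tissue lists were named after their values were seen. Of the list entries, 5 were left out for lack of 1 matching locus. From the planned root cap list, 3 entries (COBL9, TTL1 and PGL3) were dropped as wrong for the root cap.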

Additional observations from a re-analysis of the deposited data

How the results depend on the processing

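Over the 20 alternatives at the same threshold the count of called genes stayed between 7505 and 9839, and leaving out 1 library gave 7505 to 8612 of the 9379, with 3607 to 4074 higher and 3898 to 4609 lower. The 2-fold count is less stable. A pseudocount of 0.1 gave 1238 in place of 738, with 562 higher and 676 lower. A minimum of 5 FPKM gave 201 higher, and a 1.5-fold threshold gave 2688. Leaving out 1 library gave 668 to 854, with 307 to 374 higher and 349 to 480 lower. With at least 4 of 10 genes, 3 stretches of neighbouring genes were found in place of 1. YUC4 ranged from -4.31 to -4.56, with leaving out 1 library at both ends. Calls in the gene lists ranged from 404 to 458 of 483 without 1 library. Same-numbered libraries of both lines had correlations of deviations of 0.12, -0.0658 and -0.113. Libraries with unlike numbers were not compared, so whether the numbers mark pairs was not tested. The replicate block gave 9368 called genes, 4415 higher and 4953 lower. With the 6 libraries alone it gave 8732, against 9482 without the block. Without the Q2500/UAS-YUC4 libraries 9701 genes were called, and without the Q0990/UAS-YUC4 libraries 9449. Of 469 called single genes followed, 349 kept the call in every alternative run, 112 lost it without at least 1 library, and 26 lost it under the purine correction. DREB2A changed sign under that correction, from -0.38 to 0.01, with all libraries and with the 6 alone. Quantile normalization moved the median over all genes from -0.02 to 0.01 and gave 4900 higher and 4538 lower. The cause of these changes was not tested.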

Other observations

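Aquaporins took both signs, 5 of 23 higher in J0951/UAS-YUC4 (21.7%) and 10 lower (43.5%), median -0.11. Over all tested genes the shares were 22.9% and 25.8%. TIP2;3, a water and ammonium channel of the vacuole membrane, averaged 35.1 ± 1.92 FPKM against 92.7 ± 4.87, with a control mean of 242, and the lines differed by -1.38 (SE 0.17, adjusted p = 1.6e-05). PIP2;6, a plasma membrane channel, was higher at 13.9 ± 0.356 FPKM against 2.95 ± 0.33 (1.92, SE 0.21, adjusted p = 4.7e-06). Sugar exporters of the SWEET family were among the higher genes, with SWEET13 at 3.55 ± 0.153 FPKM against 0.167 ± 0.0603 (1.96, SE 0.16, adjusted p = 2.9e-07) and SWEET14 at 3.6 ± 0.873 against 0.323 ± 0.0833 (1.78, SE 0.17, adjusted p = 1.5e-06). The whole sugar transport list gave 5 of 20 higher (25%) and 7 lower (35%), beside 22.9% and 25.8% of all tested genes, median -0.10. The 7 went to 4 without J0951/UAS-YUC4 replicate 2 or 3.

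Cell cycle genes gave 4 of 28 higher and 7 lower, median -0.06, with 2 higher without J0121/UAS-YUC4 replicate 3, so both shares lay below or near those over all genes. B-type cyclins CYCB2;4 (-0.47) and CYCB2;2 (-0.46), which act at mitosis, were lower in J0951/UAS-YUC4. Root meristem genes gave 3 of 22 higher and 4 lower, median -0.01, with 2 lower without J0121/UAS-YUC4 replicate 3. WOX5, the homeobox gene of the quiescent centre, was at 2.02 ± 0.572 FPKM against 4.27 ± 0.317, with a control mean of 2.51 (-0.82, SE 0.15, adjusted p = 0.00037). CYP71A12, of the camalexin pathway, was at 4.42 ± 1.03 FPKM against 0.143 ± 0.0808, with a control mean of 0.09 (2.23, SE 0.13, adjusted p = 1.7e-08).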
